A study of Homo sapiens with 3 samples.

Results

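Imprinted genes are described here in RNA-seq of teratomas grown from H1, an established human embryonic stem cell line. The set holds 40 imprinted genes and non-coding transcripts chosen by symbol, out of 27307 gene symbols in the tables. All 40 were present, and each is represented by its transcript entry with the highest mean level. Teratomas are tumours that hold tissues of all germ layers and form when pluripotent cells are implanted. For these tumours, 1000000 H1 cells were placed under the skin of immunodeficient SCID-beige mice, and tumours were collected after 3 to 4 weeks. Polyadenylated RNA of 3 libraries, numbered as replicates 1 to 3 and called teratomas 1, 2 and 3, forms 1 group with no comparison group, and the labels name no treatment and no genetic change. Whether each library is a tumour of its own is not in the labels, so an SD or p-value describes only the spread between these libraries. The host mice still supply vessels and other stroma, and no step that removes mouse reads is named in the sources used here.

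Genomic imprinting means that a gene is transcribed mainly from the copy inherited from the mother or mainly from the copy inherited from the father. Imprinted genes lie in clusters, each governed by a control region whose DNA methylation differs between the parental copies, and clusters often pair a growth-related coding gene with a non-coding RNA. Many of them are known for high levels in embryonic mesoderm, placenta and developing brain. Parental origin is used below only as the literature gives it. These tables hold no allele data, so loss or retention of imprinting was not measured. Levels are in RPKM (reads divided by transcript length in kilobases and by library size in units of 1000000 reads) and are given for teratomas 1, 2 and 3 in that order or as mean ± SD (n = 3).

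The library sizes behind the RPKM values, worked back from reads and lengths, were 46243198, 45815401 and 43605458 reads. At the median entry length of 2500 bases, 3 reads correspond to 0.0259, 0.0262 and 0.0275 RPKM. The members' entries held 1.73%, 1.12% and 1.24% of the reads assigned to genes. Over all genes, teratoma 3 stood farther from teratomas 1 and 2 than these did from each other. Among genes with at least 20 reads in a pair of libraries, the chi-square per gene averaged 313 between teratomas 1 and 3. It averaged 233 between teratomas 2 and 3 and 57.7 between teratomas 1 and 2, where sampling noise alone gives about 1.

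Most imprinted members were expressed, several of them among the most abundant transcripts of these tumours. Of the 40 members 31 reached 1 RPKM in all 3 libraries, called detected below, against 52.7% of all genes. The median member had a mean of 9.98 RPKM, and the median of all genes was 2.05 RPKM. NNAT ranked 4 among all genes by mean RPKM, GNAS ranked 21, H19 ranked 22 and DLK1 ranked 39. In all, 8 members lay in the highest 1% of genes. Of the 29 coding members 28 were detected, and of the 11 non-coding members 3 were detected, namely H19, MEG3 and IPW.

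**Figure D1:**
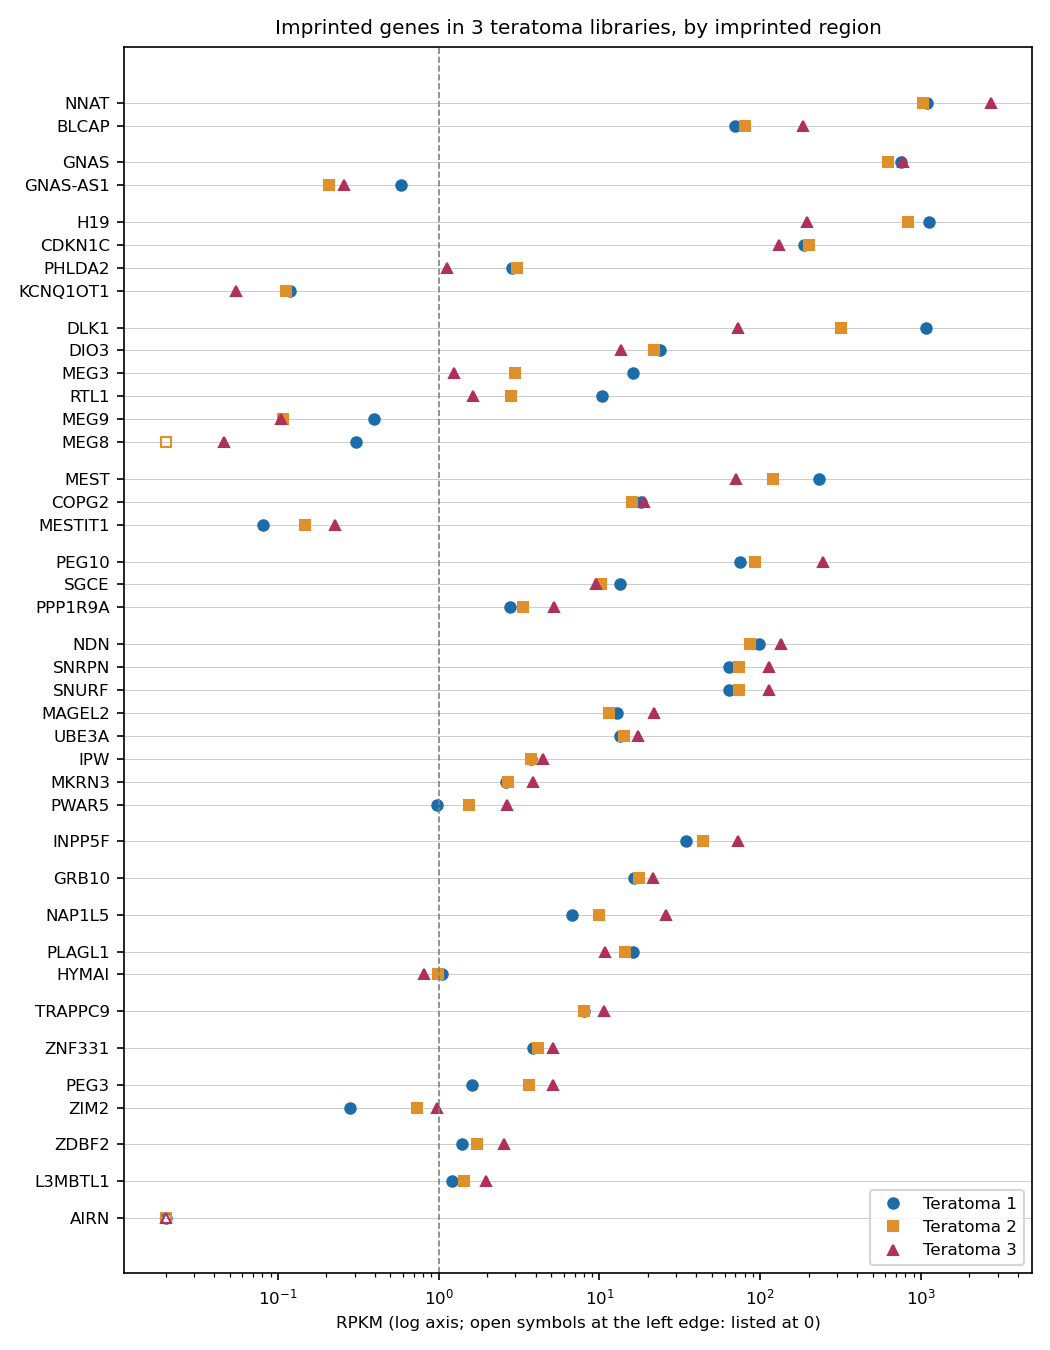
RPKM of the 40 imprinted genes (log axis), 1 symbol per library, grouped by imprinted region and ordered by the highest member of each region. The dashed line marks 1 RPKM; NNAT lies at 1088, 1034 and 2718 RPKM, and AIRN is listed at 0 in all 3 libraries.

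The libraries differed in which imprinted genes were abundant. A member was called varying if at least 1 separated its highest from its lowest library on the log2(RPKM + 1) scale, a difference that understates changes of low genes. This held for 11 of the 40 members, against 12.1% of all genes. The median range of the members was 0.62 on that scale, against 0.28 for all genes. For all 11 the exact 95% Poisson intervals of the highest and the lowest library lay apart, and these cover counting error only. Of the 40 members, 6 varied with teratoma 3 highest (NNAT, BLCAP, PEG10, PEG3, NAP1L5 and INPP5F), against 4.52% of all genes. The other 5 of the 40 varied with teratoma 3 lowest (H19, DLK1, MEG3, RTL1 and MEST), against 7.07% of all genes. Among the 3303 varying genes of the whole tables, 1235 had teratoma 3 highest and 1930 had it lowest. Without teratoma 3, 3 members varied (DLK1, RTL1 and MEG3), against 1.59% of all genes. Without teratoma 1, 6 did (H19, DLK1, NNAT, BLCAP, PEG10 and NAP1L5), against 7.51% of all genes. Without teratoma 2 the same 11 varied. No p-value was attached, because the 3 libraries form 1 group.

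**Figure D2:**
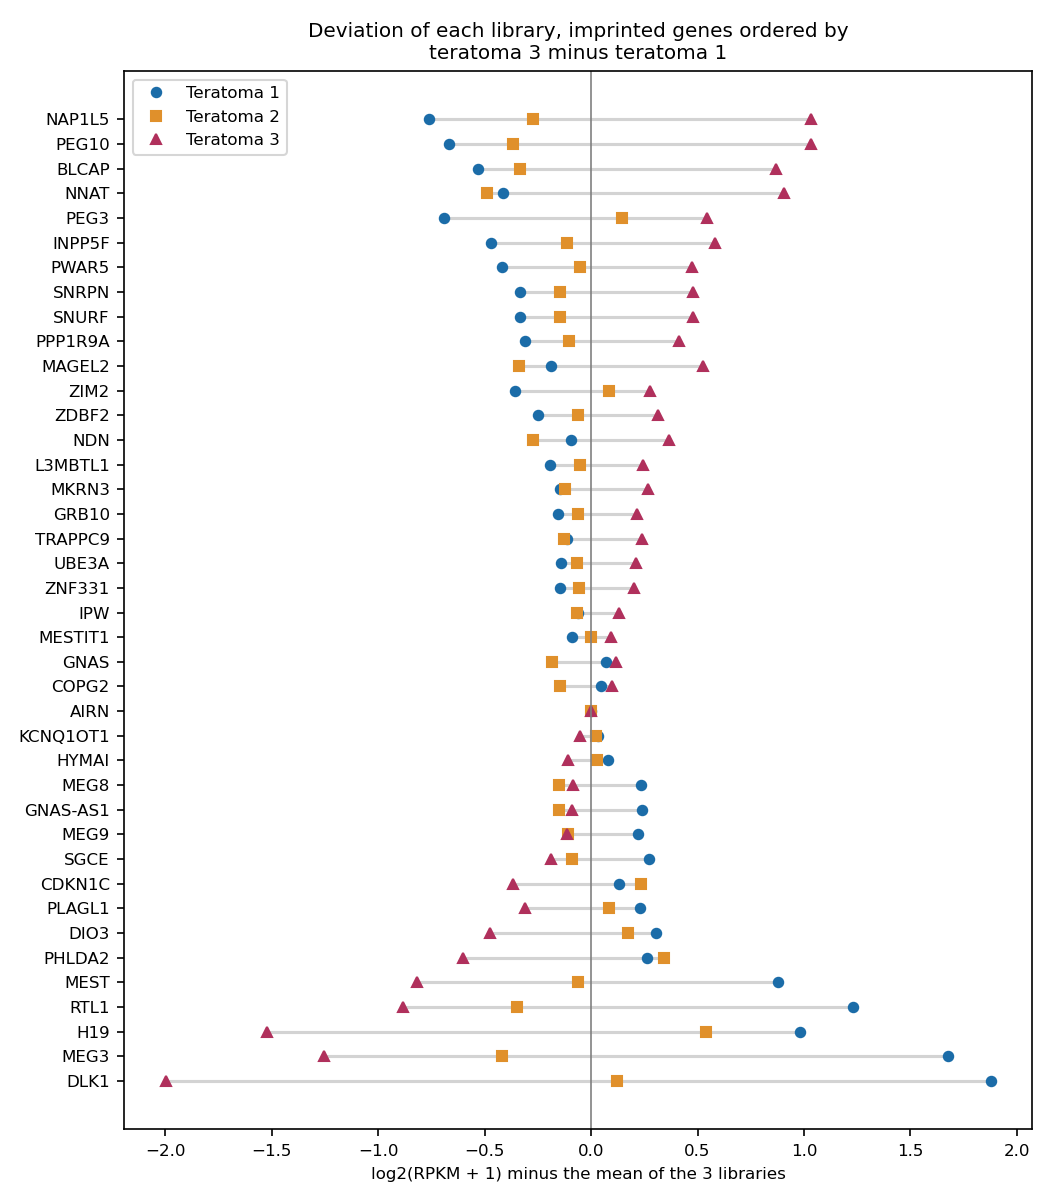
Each imprinted gene's log2(RPKM + 1) in every library minus its mean over the 3 libraries, ordered from the largest teratoma 3 minus teratoma 1 difference at the top to the smallest at the bottom. NAP1L5, PEG10, BLCAP and NNAT are high in teratoma 3, and DLK1, MEG3, H19, RTL1 and MEST are highest in teratoma 1 and lowest in teratoma 3.

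Markers of several cell types also differed between the libraries. The 12 neuron markers, among them TUBB3, STMN2 and MAP2, were each highest in teratoma 3, and their summed level was 801, 999.7 and 2643 RPKM. Of the 12 markers of fibroblasts and mesenchyme, such as COL1A1 and TWIST1, 11 were lowest in teratoma 3, and their sum was 2038, 1646 and 479 RPKM. All 10 liver and yolk sac markers, such as AFP and ALB, were highest in teratoma 2 and lowest in teratoma 3, with sums of 1153, 4300.5 and 376 RPKM. The 8 skeletal muscle markers summed to 17.1, 18.8 and 21.8 RPKM, and 3 were detected. Of the 8, 7 were highest in teratoma 3 and 6 were lowest in teratoma 2, which the sum does not show. MYOG stood at 1.65, 0.114 and 3.55 RPKM, while DES, highest in teratoma 2, stood at 4.85, 10.3 and 4.49 RPKM. The 7 trophoblast markers summed to 3.84, 2.38 and 0.797 RPKM, none was detected, PSG1 had 0 reads in every library, and VGLL1 held most of the sum at 3.52, 2.03 and 0.717 RPKM. In bulk tissue, fewer cells of a type and less RNA per cell cannot be told apart. The part of tissue makeup in the differences below was not tested.

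**Figure D3:**
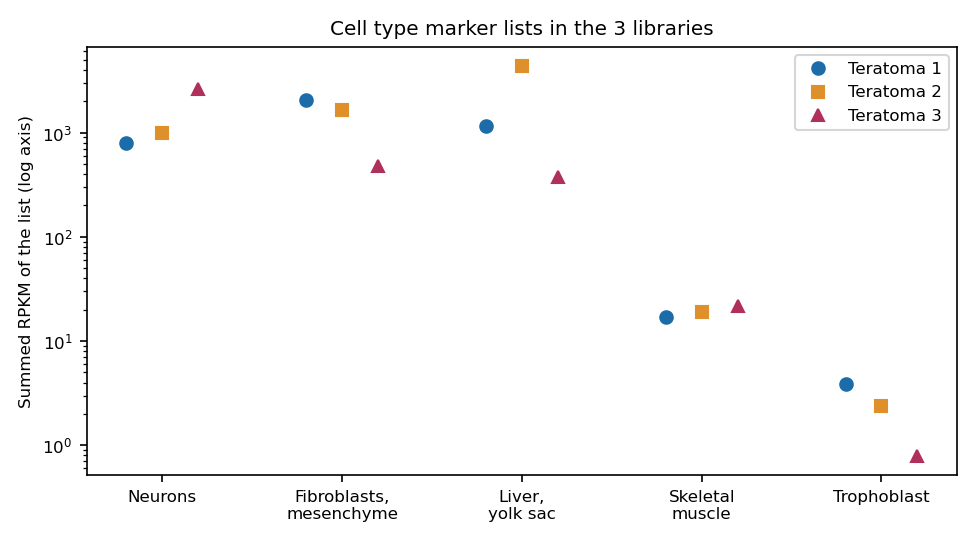
Summed RPKM (log axis) of 5 cell type marker lists in the 3 libraries. The neuron list is highest in teratoma 3 at 2643 RPKM, the fibroblast and mesenchyme list is lowest there at 479, and the liver and yolk sac list is highest in teratoma 2 at 4300.5.

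The most abundant member was NNAT, which encodes neuronatin, a small membrane protein of the developing brain transcribed from the paternal copy. It stood at 1088 RPKM in teratoma 1, 1034 in teratoma 2 and 2718 in teratoma 3, a mean of 1614 ± 957. Teratomas 1 and 2 were close, and teratoma 3 was 2.63 times the lowest library. BLCAP, the gene whose intron holds NNAT on the opposite strand, stood at 69.6, 79.9 and 186 RPKM. It was likewise high in teratoma 3, 2.66 times its lowest library. Within each library NNAT exceeded BLCAP, by 15.6, 12.9 and 14.7 times. The ratio of these neighbours thus moved far less between libraries than either level. The strand setting of the counts is not given, so reads of overlapping genes on opposite strands cannot be separated.

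Members of other regions were high in teratoma 3 beside this pair. PEG10, derived from a retrotransposon gag-pol gene and required for the placenta in mice, stood at 74.7, 92.2 and 244 RPKM. NAP1L5, an intronless relative of nucleosome assembly proteins, stood at 6.79, 9.94 and 26 RPKM and had the widest range among the members that peaked in teratoma 3, 1.79 on the log2 scale. INPP5F, a phosphoinositide phosphatase with an imprinted brain transcript, stood at 34.4, 44.2 and 72.3 RPKM. All 3 were lowest in teratoma 1. PEG3, a paternally expressed zinc finger gene, stood at 1.61, 3.66 and 5.14 RPKM. It rose from teratoma 1 to 2 to 3, and only teratomas 1 and 3 were at least 1 apart on the log2 scale. ZIM2, which shares its promoter region with PEG3, stood at 0.279, 0.733 and 0.981 RPKM and had the same order at a lower level.

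The DLK1-DIO3 region on chromosome 14 showed the widest differences. DLK1, a transmembrane protein of precursor cells that holds back fat cell differentiation, stood at 1075, 318 and 72.3 RPKM, on 232906, 68138 and 14769 reads. Teratoma 1 was 14.9 times teratoma 3, and teratoma 2 lay between. RTL1, a retrotransposon-derived gene needed for placental capillaries in mice, stood at 10.4, 2.83 and 1.64 RPKM. MEG3, the maternally expressed long non-coding RNA of the region, stood at 16.1, 3 and 1.24 RPKM. For MEG3 teratoma 1 was 12.9 times teratoma 3, and for RTL1 it was 6.36 times. DLK1 and RTL1 are paternally expressed and MEG3 maternally expressed, and all 3 had the same order of libraries. Without a known strand setting, reads counted for RTL1 may include RNA of the opposite strand, so its level may not be paternal alone.

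The other members of that region were less variable or close to the limit of detection. DIO3, the deiodinase that inactivates thyroid hormone, stood at 23.9, 21.8 and 13.5 RPKM, so teratomas 1 and 2 were similar and the range was 0.78. MEG9 had 48, 13 and 12 reads, or 0.393, 0.107 and 0.104 RPKM. MEG8 had 7, 0 and 1 reads, and 3 reads would give 0.13, 0.131 and 0.138 RPKM for its 498 bases. All 6 members of the region were highest in teratoma 1. This was also the library with the highest sum of fibroblast and mesenchyme markers. COL1A1 among them stood at 699, 475 and 128 RPKM, so its highest library was 5.46 times its lowest. Of the 12 markers on that list, 10 were highest in teratoma 1, and COL3A1 and FN1 were highest in teratoma 2. The list sum was 2038 RPKM in teratoma 1 and 1646 in teratoma 2. A link between this region and these markers was not tested.

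MicroRNA genes lie inside several of these transcripts. Of 39 listed microRNA entries, 31 had no read in any library. MIR127, MIR136, MIR431, MIR432 and MIR433 were the 5 that lie within RTL1 on the opposite strand, and all had reads. MIR431 had 76, 19 and 11 reads (14.4, 3.64 and 2.21 RPKM), which is 138%, 128% and 135% of the RTL1 level. MIR433 had 54, 15 and 6 reads (12.6, 3.52 and 1.48 RPKM). The entries cover hairpins, and long polyadenylated RNA was sequenced, so these reads do not measure mature microRNAs. Without strand information they cannot be told apart from RTL1 itself. MIR770, inside MEG3, stood at 0.221, 0.223 and 0 RPKM.

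MIR675 lies within H19 and on its strand, and its entry was the highest of the 47 small RNA entries analysed. It stood at 851, 665 and 147 RPKM on 2872, 2224 and 468 reads, which is 75.9%, 80.6% and 74.7% of the H19 level. The mature products of these genes are shown as reference sequences within H19 and RTL1. Reads were counted per entry, so coverage of these bases was not measured. They are credited to RefSeq on GRCh38.p14, with the seed (bases 2 to 8) in capitals, and the 12 mature forms of the 6 hairpins have 12 distinct seeds. One or more arms per hairpin follow.
miR-675-5p (chr11:1996800-1996822, minus strand): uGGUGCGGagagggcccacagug
miR-675-3p (chr11:1996768-1996787, minus strand): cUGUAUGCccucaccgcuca
miR-127-3p (chr14:100883035-100883056, plus strand): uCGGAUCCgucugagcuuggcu
miR-136-5p (chr14:100884716-100884738, plus strand): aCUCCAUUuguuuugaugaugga
miR-431-5p (chr14:100881026-100881046, plus strand): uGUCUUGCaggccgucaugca
miR-432-5p (chr14:100884496-100884518, plus strand): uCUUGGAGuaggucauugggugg
miR-433-3p (chr14:100881949-100881970, plus strand): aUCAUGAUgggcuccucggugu

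The members of the H19 region on chromosome 11, and IGF2 beside them, were lowest in teratoma 3. H19, a maternally expressed non-coding RNA abundant in fetal mesoderm and endoderm, stood at 1121, 825 and 197 RPKM, a mean of 714 ± 472. Teratomas 1 and 2 were high and teratoma 3 was low, with a range of 2.5 on the log2 scale. IGF2, the paternally expressed growth factor that shares enhancers with H19 and is no member of the set, stood at 1062, 1044 and 180.2 RPKM. The ratio of H19 to IGF2 was 1.06, 0.791 and 1.09, so both transcripts were at nearly the same level in each library. CDKN1C, a maternally expressed inhibitor of cyclin-dependent kinases, stood at 187, 201 and 132 RPKM, with a range of 0.6. PHLDA2, a maternally expressed gene that limits placental growth in mice, stood at 2.87, 3.08 and 1.12 RPKM, with a range of 0.94. KCNQ1OT1, a paternally expressed antisense RNA of this region, had 500, 470 and 220 reads spread over 91671 bases, or 0.118, 0.112 and 0.055 RPKM. All 4 members of the region were lowest in teratoma 3.

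**Figure D4:**
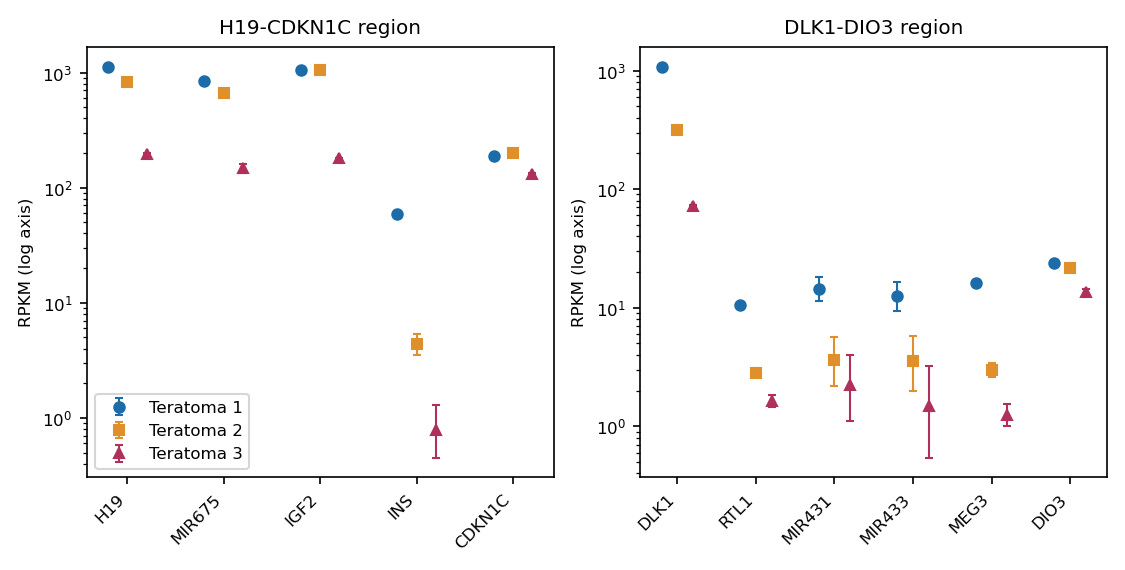
RPKM (log axis) of genes and small RNA entries of the H19-CDKN1C and DLK1-DIO3 regions, with exact 95% Poisson intervals of the reads as bars. H19, MIR675 and IGF2 share high levels in teratomas 1 and 2 and a low level in teratoma 3, while DLK1, RTL1, MIR431, MIR433 and MEG3 are highest in teratoma 1.

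On chromosome 7 the members of a region did not always move together. MEST, a paternally expressed hydrolase-like gene of embryonic mesoderm, stood at 232, 120.5 and 70.8 RPKM, so teratoma 1 was 3.28 times teratoma 3. COPG2, a coat protein subunit that overlaps MEST on the other strand and whose imprinting is disputed, stood at 18.2, 15.8 and 18.9 RPKM. Its libraries lay within 0.24 on the log2 scale. MESTIT1, the antisense transcript of MEST, had 12, 22 and 32 reads, the opposite order to MEST. SGCE, the sarcoglycan gene next to PEG10 with which it shares a control region, stood at 13.5, 10.3 and 9.53 RPKM. It was highest in teratoma 1, where PEG10 was lowest. PPP1R9A, a neuronal actin-binding protein further along that region, stood at 2.76, 3.34 and 5.22 RPKM. GRB10, an adaptor that dampens insulin receptor signalling, stood at 16.5, 17.7 and 21.7 RPKM.

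The Prader-Willi and Angelman region on chromosome 15 had 8 members, all of them highest in teratoma 3. None varied by 1, against 12.1% of all genes. The share of all genes highest in teratoma 3 was not counted, so the first count is a description only. NDN, a MAGE family protein of postmitotic neurons, stood at 98.1, 86.6 and 136 RPKM. MAGEL2, another MAGE protein, stood at 12.9, 11.5 and 21.8 RPKM. SNRPN, a splicing protein of neurons, stood at 64.3, 73.6 and 114 RPKM. SNURF is carried on the same bicistronic transcript as SNRPN, and the retained entries of both have the same 1562 bases and the same reads. They are 1 measurement, although both symbols enter the counts. UBE3A, a ubiquitin ligase expressed from the maternal copy in neurons and from both copies elsewhere, stood at 13.4, 14.1 and 17.3 RPKM. MKRN3, a ubiquitin ligase that restrains puberty, stood at 2.63, 2.7 and 3.85 RPKM. The non-coding IPW stood at 3.75, 3.74 and 4.43 RPKM, and PWAR5 at 0.974, 1.54 and 2.66 RPKM. Ranges in this region ran from 0.2 for IPW to 0.89 for PWAR5, against 1.39 for NNAT and 1.48 for the neuron marker TUBB3. The added 1 shrinks the ranges of low genes such as PWAR5. By plain RPKM the highest library of PWAR5 was 2.73 times its lowest, against 2.63 times for NNAT and 2.8 times for TUBB3. TUBB3 lies toward the low end of the 12 neuron markers, whose ratios ran from 2.34 for NEFM to 5.01 for NEFL. With 0.1 added instead, the range was 1.36 for PWAR5 and 1.39 for NNAT.

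GNAS, which encodes the stimulatory G protein alpha subunit along with further products of separate promoters, was high and steady. It stood at 747, 626 and 773 RPKM, with a range of 0.3 on the log2 scale. Its 13 entries ranged from 14.6 to 716 RPKM in the mean and share most exons, so the maternal, paternal and biallelic products could not be separated. GNAS-AS1, the paternal antisense transcript, had 31, 11 and 13 reads. PLAGL1, a zinc finger regulator linked to transient neonatal diabetes, stood at 16.1, 14.5 and 10.8 RPKM. HYMAI, the non-coding RNA that shares its promoter, stood at 1.05, 0.984 and 0.806 RPKM, and its Poisson intervals overlapped between the highest and lowest library.

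Smaller loci completed the set. TRAPPC9, a vesicle trafficking subunit, stood at 8.05, 7.99 and 10.6 RPKM. ZNF331, a zinc finger gene, stood at 3.84, 4.15 and 5.16 RPKM. ZDBF2 stood at 1.4, 1.74 and 2.55 RPKM and L3MBTL1, a chromatin-compacting protein, at 1.2, 1.43 and 1.98 RPKM. All 4 were highest in teratoma 3 and within 1 on the log2 scale. AIRN, known in mice as the antisense RNA that silences Igf2r, had 0 reads in each library, where 3 reads would give 0.0436, 0.044 and 0.0462 RPKM. In all, 7 members stayed under 1 RPKM in every library (KCNQ1OT1, MEG8, MEG9, MESTIT1, GNAS-AS1, ZIM2 and AIRN), and HYMAI and PWAR5 crossed that level in part of the libraries.

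Grouped by parental origin, the members showed different orders of the libraries. The 6 maternally expressed members (H19, CDKN1C, PHLDA2, MEG3, MEG8 and MEG9) were never highest in teratoma 3, and 5 of them were lowest there. Their median was 9.49, 3.04 and 1.18 RPKM. The 24 paternally expressed members had medians of 8.61, 6.84 and 7.33 RPKM, and 15 were highest in teratoma 3 while 8 were lowest there. The 10 members whose origin depends on tissue or isoform or is disputed had medians of 14.9, 15 and 18.1 RPKM, and 9 of them were highest in teratoma 3. Medians of all genes were 1.97, 2.08 and 1.74 RPKM. The share of all genes highest or lowest in each library, varying or not, was not counted. Counts of members or markers by their highest or lowest library, whether by origin, region or list, are thus descriptions only. SNRPN and SNURF, which are 1 measurement, both count as paternal members. The maternal group consists of members of the H19 and DLK1 regions, so origin and region cannot be told apart. In those regions the 4 paternal members DLK1, RTL1, DIO3 and KCNQ1OT1 were lowest in teratoma 3 as well.

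Neighbouring genes were compared within libraries as differences of log2(RPKM + 1), the first gene minus the second, for 11 pairs. For 10 pairs the difference had the same sign in all 3 libraries. The exact two-sided sign-flip permutation p of each was 0.25, which no set of 3 libraries can go below, so none could pass a test (0.275 after Benjamini-Hochberg adjustment over the 11 pairs). PLAGL1 exceeded HYMAI by 2.91 ± 0.18, or by plain RPKM ratios of 15.3, 14.7 and 13.4. For the partners far under 1 RPKM the added 1 sets the size of the difference. GNAS minus GNAS-AS1 was 9.06 ± 0.19, and 11.1 with 0.01 added instead, while the plain RPKM ratio was 1290.0, 3019 and 2999.7. CDKN1C minus KCNQ1OT1 was 7.29 ± 0.28, and 10.7 with 0.01 added, while the plain ratio was 1583, 1792 and 2390.2. MEG3 minus DLK1 was -5.77 ± 0.67, with DLK1 far above MEG3 in each library. Within the Prader-Willi and Angelman region, SNRPN exceeded UBE3A by 2.38 ± 0.24 and NDN exceeded MAGEL2 by 2.74 ± 0.14. PEG3 exceeded ZIM2 by 1.36 ± 0.31, and by 2.39 with 0.01 added.

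Pairs differed in how far this difference moved between libraries. NNAT minus BLCAP was 3.95, 3.68 and 3.87 (mean 3.83 ± 0.14), although each of these genes varied by over 1. PEG10 minus SGCE was 2.39, 3.05 and 4.54 (3.33 ± 1.1), and MEST minus COPG2 was 3.6, 2.85 and 1.85 (2.77 ± 0.88). H19 minus IGF2 was the pair with no common sign, at 0.08, -0.34 and 0.13 (-0.04 ± 0.26, exact p = 1, adjusted 1). Its sign turned without teratoma 2 (0.10), and with the RPKM of all entries of a gene summed it was -0.71. Summing counts shared reads once per entry, and H19 has 3 entries against 5 for IGF2, so that value depends on the number of entries.

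**Figure D5:**
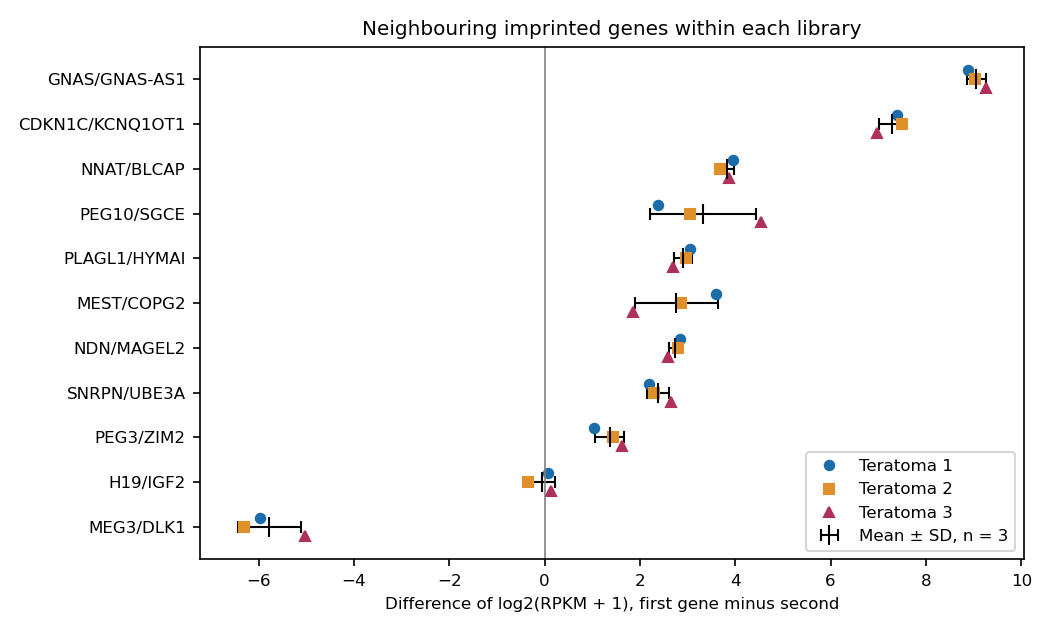
Difference of log2(RPKM + 1) between neighbouring imprinted genes in each library, first gene minus second, with mean and SD over the 3 libraries. MEG3/DLK1 lies at -5.77, H19/IGF2 straddles 0, and PEG10/SGCE and MEST/COPG2 have the widest SDs at 1.1 and 0.88.

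Transcript entries of a gene shared their highest library. Of the 40 members 25 had several entries, and 24 of these had reads. In each of the 24 the same library was highest for every entry, though the order of the other libraries could differ, as in COPG2. MEG3 had 15 entries from 0.604 to 6.78 RPKM in the mean, the lowest being the 9689-base one. INPP5F had 3 entries at 50.3, 33.3 and 5.27 RPKM, and PLAGL1 had 27 from 11 to 13.8 RPKM. Entries of a gene share exons and reads, so they are not independent measurements.

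Promoter windows of the members that RefSeq lists were searched for TGCCGC, the hexamer bound by ZFP57, the zinc finger protein that protects methylation at imprinting control regions. Windows span 250 bases before to 50 after a transcript start on GRCh38.p14, and both strands were searched. Windows were at hand for 27 members, and the other 13, among them NNAT, DLK1 and PEG10, were not searched. TGCCGC or its reverse complement GCGGCA was in 21 of the 61 windows of the 27 members (34.4%), against 16.7% of 35116 windows of all genes. Windows of a gene can overlap, and a window listed under several symbols counts once for each, so windows are not independent. By gene, 13 of the 27 members held the hexamer in a window (48.1%), against 19.5% of 27305 genes. The members had more windows per gene (61 for 27, against 35116 for 27305), which gives a member more chances of a match. The by-gene shares are thus not like for like. Among the 13, SNRPN and SNURF had equal match and CG numbers, as did PLAGL1 and HYMAI, so shared windows may count under both symbols. The median number of CG pairs per window was 18 in the members and 14 in all. These are descriptions of letters, not of binding, and the hexamer itself holds a CG pair. Of the 7 varying members with a window 4 held the hexamer (BLCAP, MEG3, MEST and NAP1L5) and 3 did not (H19, RTL1 and INPP5F). This stands beside 13 of all 27 members with a window, and no link between hexamer and varying was tested. The windows of MEG3, MEST, NAP1L5 and SNURF with the most matches are printed as examples that hold the hexamer, and were chosen for that. MEG3 and MEST were lowest in teratoma 3, NAP1L5 was highest there, and SNURF was highest there without passing the difference of 1. Capitals mark each match. In MEST the reverse match follows the forward match with shared bases, so its 3 matches include 2 that overlap.
MEG3 (chr14:100825858-100826157, plus strand): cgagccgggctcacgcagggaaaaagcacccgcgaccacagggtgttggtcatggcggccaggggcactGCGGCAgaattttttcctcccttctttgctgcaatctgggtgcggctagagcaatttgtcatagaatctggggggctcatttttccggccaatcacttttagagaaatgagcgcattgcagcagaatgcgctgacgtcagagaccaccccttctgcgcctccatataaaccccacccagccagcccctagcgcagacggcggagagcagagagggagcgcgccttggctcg
MEST (chr7:130491835-130492134, plus strand): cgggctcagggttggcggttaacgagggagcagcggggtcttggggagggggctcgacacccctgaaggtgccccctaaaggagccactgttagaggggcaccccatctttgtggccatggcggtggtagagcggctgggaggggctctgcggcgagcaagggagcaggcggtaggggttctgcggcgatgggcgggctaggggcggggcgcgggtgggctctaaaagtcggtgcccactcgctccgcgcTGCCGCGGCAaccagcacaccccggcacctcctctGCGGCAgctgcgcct
NAP1L5 (chr4:88697780-88698079, minus strand): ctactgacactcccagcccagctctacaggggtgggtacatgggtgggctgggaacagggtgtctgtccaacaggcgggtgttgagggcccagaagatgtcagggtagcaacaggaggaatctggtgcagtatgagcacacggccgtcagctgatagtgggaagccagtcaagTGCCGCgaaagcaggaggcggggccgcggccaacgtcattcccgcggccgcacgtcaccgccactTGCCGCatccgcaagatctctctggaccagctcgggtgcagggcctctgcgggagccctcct
SNURF (chr15:24954737-24955036, plus strand): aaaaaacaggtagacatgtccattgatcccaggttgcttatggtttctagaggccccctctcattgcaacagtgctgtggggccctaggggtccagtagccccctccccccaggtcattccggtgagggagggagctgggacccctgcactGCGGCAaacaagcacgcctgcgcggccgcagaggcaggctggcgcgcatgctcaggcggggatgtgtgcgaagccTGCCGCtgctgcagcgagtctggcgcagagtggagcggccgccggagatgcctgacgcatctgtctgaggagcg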

How the data were processed

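RNA-seq of 3 teratoma libraries was analysed from 1 deposited table per library. Bowtie2 and hg19 are named in the submitters' processing notes. The sources used here do not give version, counting tool, filters or strand setting. The tables list 59443 RefSeq entries with deposited read counts, lengths and the authors' RPKM. These RPKM equal the deposited count divided by length and by 1 total per library, within 1% or 0.5 reads for 100% of entries. The other deposited columns, length and a number that appears to be genome placements (1 for each member), were the same in all tables.

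For each symbol the entry with the highest mean RPKM was kept. Read counts served only for exact 95% Poisson intervals and floors of 3 reads, which cover counting error only. Levels were compared as log2(RPKM + 1). With 1 group, no count model was fitted. Neighbour differences used an exact sign-flip permutation test over libraries, adjusted over 11 pairs.

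Members, lists, pairs and thresholds were chosen with earlier results of these data known. All members are accounted for. From other lists, the 3 detected genes with the highest means, the varying genes and the pair genes are named. Marker and small RNA examples, and further companions of the H19 region, were chosen after their values were seen. Overlaps between genes and sequences come from RefSeq GRCh38.p14, which matched all 40 members by symbol, and no coordinates of the hg19 tables were used. Alternatives covered detection level, pseudocount, entry choice, scaling, a filter on low values, the size of the difference and each library left out. Python 3.11.15, numpy 2.4.6, pandas 2.3.3, scipy 1.17.1 and matplotlib 3.10.9 were used.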

Additional observations from a re-analysis of the deposited data

How the results depend on the processing

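The number of detected members, 31 of 40, was 33 at a detection level of 0.5 RPKM (82.5%, against 58.6% of all genes) and 21 at 5 RPKM (52.5%, against 31.2% of all genes), and 31 to 32 with 1 library left out (against 53.1% to 55.6% of all genes). The number of varying members, 11, was 17 with a pseudocount of 0.1 (42.5%, against 25.4% of all genes), 18 with 0.01 (45%, against 36.2%) and 4 at a difference of 2 (10%, against 1.52%). It ranged from 3 to 11 with 1 library left out, being 6 without teratoma 1 and 3 without teratoma 3. Among the 32 members that averaged 1 RPKM or more it was 11, against 20% of the genes kept. Rescaling to 1000000 per library gave 15 (37.5%, against 19.2%). Of 99 alternative values of the neighbour differences 97 kept their sign. H19 minus IGF2, at -0.04, was 0.029 with the mean over entries, and -0.13 to 0.10 with 1 library left out. Median log2(RPKM + 1) by origin was 2.05 for maternal, 3.03 for paternal and 4.08 for variable members. It was 3.65, 3.69 and 5.79 with entries summed, and 3.51, 4.69 and 5.82 after rescaling, which raises every value. Maternal and paternal medians were thus close with entries summed, which counts shared reads once per entry (MEG3 has 15 entries). The members under 1 RPKM rest on few reads for their length, so their differences between libraries depend on the pseudocount: MEG9 had a range of 0.34 with a pseudocount of 1 and 1.82 with 0.01.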

Other observations

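Imprinted genes outside the set followed the patterns of their regions in part. Of 49 listed companions 46 were analysed, 18 were detected (against 52.7% of all genes) and 11 varied by at least 1 on the log2 scale (against 12.1% of all genes). The highest means were those of IGF2 (762 ± 504 RPKM), the nucleosome assembly gene NAP1L4 (41.7 ± 1.51) and the homeobox gene DLX5 (30.3 ± 6.84). INS, the insulin gene beside IGF2, had the widest range, at 59.5, 4.37 and 0.789 RPKM in teratomas 1, 2 and 3. IGF2-AS stood at 12.4, 7.17 and 1.87 RPKM, the antisense reads not being separable from IGF2. In the same region the placental factor ASCL2 stood at 7.49, 5.42 and 2.64 RPKM. The transporter SLC22A18 stood at 5.35, 7.66 and 2.59 and the potassium channel KCNQ1 at 2.31, 2.49 and 0.586. TSSC4 and SLC22A18AS of that region were also lowest in teratoma 3, but other companions there were not. OSBPL5 was highest in teratoma 3, at 6.71, 6.1 and 7.91 RPKM. NAP1L4 (42.7, 39.9 and 42.5 RPKM) and KCNQ1DN (2.13, 0.618 and 1.68) were lowest in teratoma 2. SLC22A3 (1.85, 2.63 and 0.771 RPKM), TFPI2 (1.44, 2.79 and 0.352) and DDC (10.7, 13.9 and 5.88) were, like KCNQ1 and SLC22A18, highest in teratoma 2 and lowest in teratoma 3. PEG13, a paternal non-coding RNA inside TRAPPC9, stood at 0.939, 2 and 5.11 RPKM and the nearby potassium channel KCNK9 at 1, 1.41 and 6.23. Both were highest in teratoma 3, with ranges of 1.66 and 1.85, while TRAPPC9 ranged over 0.37.

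Factors that maintain imprints were mostly present. Of 12 listed genes 9 were detected, against 52.7% of all genes, and 1 varied, against 12.1% of all genes. TRIM28, the corepressor recruited by zinc finger proteins to control regions, stood at 201, 182 and 132 RPKM, and the insulator protein CTCF at 25.8, 23.6 and 25.1. DNMT1, the maintenance methyltransferase, stood at 21.1, 19.6 and 16.8 RPKM, and its partner UHRF1, the varying one, at 20.5, 16.1 and 8.77. ZFP57 had 0, 0 and 2 reads, where 3 reads would give 0.0347, 0.035 and 0.0368 RPKM. Its entry has 8 genome placements. ZNF445, which acts with ZFP57, stood at 7.06, 7.42 and 10.6 RPKM.

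Small nucleolar RNA entries of the Prader-Willi and Angelman region had few reads. SNORD107 stood at 2.02, 3.78 and 3.67 RPKM, SNORD64 at 2.58, 1.3 and 2.74 and SNORD108 at 1.57, 2.21 and 2.33. SNORD115-1 had 0 reads in each library. Such entries were read through long polyadenylated RNA and do not measure the mature small RNAs.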
